A study of Homo sapiens with 30 samples.

Results

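The genes encoding the core and ARID1 subunits of the BAF chromatin remodelling complex were followed in G401 cells, a malignant rhabdoid tumour line that lacks SNF5, another core subunit of this complex. The 10 genes were taken by symbol from the PRO-Seq table, which lists 20367 genes in 20582 transcripts, and each of them has 1 transcript there. They are the ATPases SMARCA2 and SMARCA4, the scaffold subunits SMARCC1 and SMARCC2, the SMARCD1, SMARCD2 and SMARCD3 family, SMARCE1, and ARID1A and ARID1B. G401 cells were transduced with lentiviral vectors carrying a tetracycline-inducible EGFP, OMOMYC or SNF5 construct, and the selected pools, not single clones, were given 1 μg/ml doxycycline for 24 h. EGFP was the control, OmoMYC is a MYC mutant that acts as a dominant negative, and SNF5 replaced the subunit missing from these cells. PRO-Seq, a nuclear run-on assay that maps engaged RNA polymerases, was carried out in 3 samples per construct, ATAC-Seq, which maps accessible chromatin, in 3 per construct, and MYC ChIP-Seq in 2 per construct.

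BAF is a form of the SWI/SNF complex, which uses ATP to slide or evict nucleosomes. Each complex holds either SMARCA2 (BRM) or SMARCA4 (BRG1) as its motor, built on a dimer of the SMARCC subunits, with a single SMARCD family member and SMARCE1. ARID1A and ARID1B, large DNA-binding subunits, exclude each other and define the canonical BAF form. SNF5, encoded by SMARCB1, is lost in rhabdoid tumours.

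The total of gene body reads per PRO-Seq sample ran from 28444943 to 46957634, and that of promoter-proximal reads from 518900 to 3386528. Replicate 1 had the fewest promoter-proximal reads in every construct. Reads on the SMARCB1 gene body numbered 4, 1 and 6 in the EGFP samples, 2, 5 and 4 in the OmoMYC samples, and 2870, 4467 and 3440 in the SNF5 samples, so that only the samples labelled SNF5 transcribed it appreciably. VIM, a mesenchymal gene, had 6423 to 16148 gene body reads per sample, whereas the leukocyte gene PTPRC had at most 1, the endothelial gene PECAM1 had 0, the hepatocyte gene ALB at most 8 and the epithelial gene EPCAM 14 to 58.

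Transcription of the 10 genes was first compared within the EGFP control. Levels are gene body reads per kb and per 1000000 scaled gene body reads, where the gene body starts 1 kb after the transcript start. In EGFP-expressing cells ARID1A had the highest level (4.47 ± 0.81, SD, n = 3), and 82.7% of all genes were below it. The other members except SMARCA2 lay between 1.75 and 3.29. These were SMARCD1 (3.29 ± 0.11), SMARCE1 (2.96 ± 0.47), SMARCC2 (2.79 ± 0.20), SMARCC1 (2.55 ± 0.09), SMARCA4 (2.44 ± 0.56), SMARCD2 (2.26 ± 0.32), ARID1B (2.04 ± 0.07) and SMARCD3 (1.75 ± 0.53). ARID1A lay above SMARCD1 in 3 of 3 samples with no overlap of their ranges, and SMARCD3 lay above SMARCA2 in the same way. From SMARCD1 down to SMARCD3 the ranges of neighbours in this order overlapped, and the order of each pair held in 2 of 3 samples, apart from SMARCC2, which was above SMARCC1 in 3 of 3. SMARCD3 was nevertheless above the level of 62.6% of all genes.

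SMARCA2 was almost silent. Its level in EGFP-expressing cells was 0.000977, 0.00285 and 0.00865, and 14.8% of genes were below its mean. The log2 ratio of SMARCA2 to SMARCA4 was −9.69 ± 1.51 (SD, n = 3), so that nearly all transcription of the BAF ATPase genes in these cells came from SMARCA4. Both ARID1 genes were transcribed, with a log2 ratio of ARID1B to ARID1A of −1.12 ± 0.20 (SD, n = 3). SMARCC2 and SMARCC1 were within 0.13 ± 0.07 of each other on the log2 scale. In the SMARCD family SMARCD1 led, and the log2 ratio to it was −0.55 ± 0.19 for SMARCD2 and −0.95 ± 0.42 for SMARCD3. These levels count polymerases per length and not protein.

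**Figure D1:**
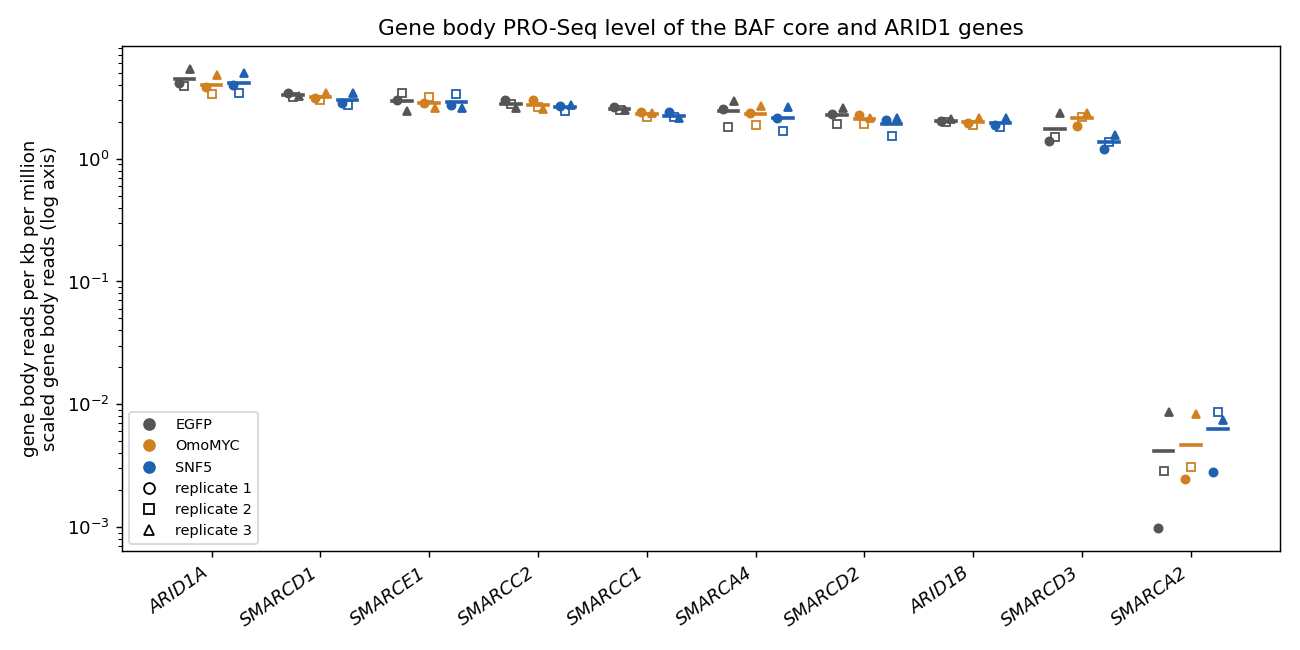
Gene body level (reads per kb and per 1000000 scaled gene body reads, log axis) of the 10 genes, ordered by their mean in EGFP. Each symbol is 1 PRO-Seq sample, its shape gives the replicate number, and short bars are means of 3. SMARCA2 lies at 0.00865 or lower in all samples but 1, which reaches 0.00870, and the other 9 genes lie above 1.

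The promoter of SMARCA2, the gene with the fewest reads, is shown because ATAC-Seq sites differed between constructs at this place. The bases are those before the start of the main transcript, chr9:2015097-2015346 of GRCh38.p14 on the plus strand, from RefSeq. They have a GC content of 68.8%, and the whole promoter entry holds 30 CG dinucleotides, where the median RefSeq promoter holds 14. No motif was marked in them.

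SMARCA2 promoter: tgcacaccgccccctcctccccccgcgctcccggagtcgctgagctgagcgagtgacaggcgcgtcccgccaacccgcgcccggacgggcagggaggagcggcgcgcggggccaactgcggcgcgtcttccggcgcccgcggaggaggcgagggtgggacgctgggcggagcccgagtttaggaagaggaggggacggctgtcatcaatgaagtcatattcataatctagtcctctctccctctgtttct

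MYC binding at the 10 genes was examined next, since the study followed how OmoMYC and SNF5 act on MYC-bound genes. Peaks were called by the authors in each sample in hg19, and a gene counted as bound where overlapping peaks of both EGFP samples had a summit within 1 kb of a GENCODE transcript start. SMARCC1 was the only member bound, 1 of 10, where 4.99% of all 20149 genes were bound. The peaks were chr3:47823003-47823157 in EGFP replicate 1 (4.63-fold over the local background), which ends before reaching the start, and chr3:47822732-47823652 in replicate 2 (6.75-fold), which covers it. By fold enrichment these peaks ranked 778 of 940 and 1205 of 5396. Both summits lay in the first part of the gene, 363 and 485 bp inside the transcript of the PRO-Seq table, in an intron of the annotation. EGFP replicate 1 held 940 peaks and replicate 2 held 5396, so the number of shared regions is limited by replicate 1. With replicate 2 alone 4 members were bound, where 25.7% of all genes were, and no member was at a q-value of 0.0001 (4.45% of all genes) or a reciprocal overlap of 50% (2.21%). The SMARCC1 peak of EGFP replicate 1 lay at the edge of that q-value cut, with a rounded −log10 q of 4.0. Its overlapping peak in replicate 2 had 15.18.

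The members seen in EGFP replicate 2 alone were SMARCA4, ARID1A and ARID1B. The SMARCA4 summit lay 10 bp before its start, at position 11071588 of chromosome 19, with 7.43-fold enrichment. ARID1A had a summit 222 bp before its start with 9.09-fold enrichment, which ranked 412 of 5396 in that sample, and a weaker summit 2655 bp before that start with 4.57-fold enrichment. The weaker summit lay 140 bp inside another annotated ARID1A transcript start. ARID1B had a summit 350 bp before its start with 5.34-fold enrichment and another with 7.54-fold enrichment in an intron, 324 bp before an internal start. Further peaks within 10 kb of SMARCD2 and ARID1A lay 47 bp from FTSJ3 and 45 bp from PIGV, neighbouring genes. No peak of an SNF5 sample lay within 10 kb of a member, but those lists held 137 and 27 peaks in the whole genome, and the OmoMYC lists held 0 apart from a placeholder line. The absence of peaks there therefore describes the lists as a whole and nothing particular to these genes.

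Sequences at the MYC summits are shown to let the bound promoters be read for CACGTG, the E-box that MYC and its partner MAX prefer, searched on both strands, where it reads alike. Bases are from the plus strand of GRCh37, lower case, with CACGTG in capitals. The SMARCC1 windows are chr3:47822992-47823092 and chr3:47822870-47822970, 101 bases centred on each summit. For SMARCA4 the bases run from the window's edge to the transcript start, chr19:11071538-11071597. ARID1A is shown at its strongest summit, chr1:27022250-27022350, and around the only CACGTG in its windows, chr1:27019888-27019917.

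SMARCC1, EGFP replicate 1: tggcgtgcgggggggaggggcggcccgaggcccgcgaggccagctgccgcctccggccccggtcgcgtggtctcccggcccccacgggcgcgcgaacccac
SMARCC1, EGFP replicate 2: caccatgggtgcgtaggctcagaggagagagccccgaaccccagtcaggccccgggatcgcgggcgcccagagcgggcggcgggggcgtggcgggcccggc
SMARCA4, EGFP replicate 2: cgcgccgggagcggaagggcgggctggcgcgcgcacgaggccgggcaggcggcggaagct
ARID1A strongest summit, EGFP replicate 2: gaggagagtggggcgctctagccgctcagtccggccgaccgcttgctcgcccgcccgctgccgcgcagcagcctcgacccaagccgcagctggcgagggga
ARID1A E-box near the upstream summit, EGFP replicate 2: cgctgctcgggccagcCACGTGcccagctc

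Neither SMARCC1 window holds CACGTG, and the SMARCA4 stretch and the strongest ARID1A window hold none. Among the member summit windows read, CACGTG was found only in that of the weaker ARID1A summit. Windows of 101 bases held CACGTG at 37.3% of the summits of EGFP replicate 1 and at 17.9% of those of replicate 2, and 7.26% of 35116 RefSeq promoters of 300 bases did. RefSeq promoter entries were found for 8 of the 10 members, 17 entries in all, and 0 of them held CACGTG. SMARCC1 and SMARCC2 had none in the table used.

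Accessible chromatin at the member genes was compared between constructs in the ATAC-Seq peak lists, which are in hg38. At least 1 site lay within 1 kb of a start of every member except SMARCD3. Starts with a single site shared by 3 of 3 samples were those of SMARCD1, SMARCD2 and ARID1B in EGFP, where 33.8% of all 19869 genes had such a start. SMARCC1 joined them in OmoMYC (30.1% of all genes), and SMARCA2, SMARCA4, SMARCC1 and SMARCC2 in SNF5 (48.8% of all genes). For ARID1B the site open in every sample was at an internal start, and the site nearest to the first starts was open in 2 EGFP, 1 OmoMYC and 3 SNF5 samples. The SMARCE1 start had a site in 2 SNF5 samples and 0 EGFP samples. ARID1A starts had a site in 3 SNF5 samples and 1 EGFP sample, but at different positions, with no single site within 1 kb in more than 2 SNF5 samples.

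The SMARCA2 promoter was open in 0 of 3 EGFP, 2 of 3 OmoMYC and 3 of 3 SNF5 samples. The site spans chr9:2014964-2015399 with its summit at 2015188, inside the bases printed for SMARCA2, and its fold enrichment was 7.41, 6.58 and 6.92 in the SNF5 samples and 6.82 and 5.01 in OmoMYC replicates 2 and 3. A further site within SMARCA2, at chr9:2087823-2088016, was present in 3 of 3 SNF5 samples and in no other sample. In all, 38 sites lay within 10 kb of the members, and 5 of them were gained with SNF5, that is, present in all 3 SNF5 samples and 0 of 3 EGFP samples, where 9.09% of all 40005 sites were gained. The other gained sites were chr12:56190102-56190434, 821 bp before a SMARCC2 start, chr1:26771643-26771908 within ARID1A and chr6:157106591-157106790 within ARID1B. No member site was lost with SNF5 (0.0075% of all sites) or with OmoMYC (0.0175%), and none was gained with OmoMYC (0.0275%).

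The SNF5 lists were longer than the others, with 22722 to 33596 peaks against 9208 to 17817 in EGFP and 7260 to 23684 in OmoMYC. When each list was limited to the same number of top peaks, 0 of the 8 member sites left were gained with SNF5, and 1.33% of all sites were. The peak lists hold no read counts, so a site missing from a list may lie just under the authors' threshold.

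**Figure D2:**
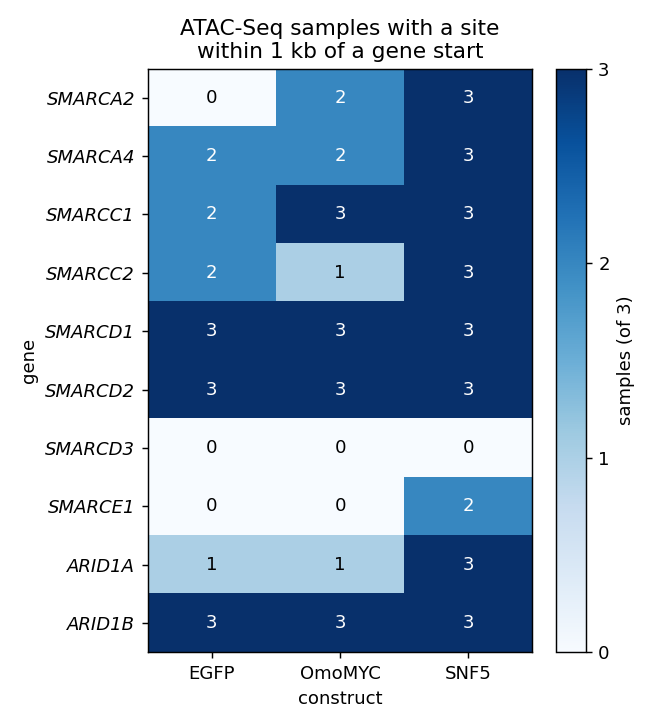
Number of ATAC-Seq samples, of 3 per construct, with any site whose summit lay within 1 kb of a start of each gene, counting sites at different starts together. The SMARCA2 start goes from 0 in EGFP to 3 in SNF5, SMARCD1 and SMARCD2 are at 3 throughout, and SMARCD3 is at 0 throughout.

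To ask how SNF5 affected transcription of its partner subunits, gene body counts of the SNF5 and EGFP samples were compared by the quasi-likelihood test of edgeR in 15060 genes, adjusted by Benjamini-Hochberg, with the replicate number as a block. With SNF5, 3 of 10 members were lower and 0 higher at an adjusted p under 0.05, beside 16.5% and 17.6% of all genes tested. The 3 were SMARCA4, SMARCC1 and SMARCD3. The log2 fold change was below 0 for 9 of 10 members, with a median of −0.13 over the members and −0.03 over all genes. In bulk samples a change in the number of transcribing cells and a change per cell cannot be told apart.

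SMARCA4, the only BAF ATPase gene with appreciable transcription, had levels of 2.56, 1.83 and 2.93 in EGFP replicates 1 to 3 and of 2.15, 1.69 and 2.62 in SNF5. SNF5 was lower within each replicate number, whereas the ranges of the 2 groups overlapped. Its counts fell by 0.18 on the log2 scale (SE 0.05, adjusted p = 0.0308, edgeR), a change of −11.5%. SMARCC1, a scaffold subunit, was the only member with overlapping MYC peaks of both EGFP samples. It had levels of 2.65, 2.49 and 2.51 in EGFP and of 2.39, 2.18 and 2.16 in SNF5. All 3 SNF5 samples lay below all 3 EGFP samples, as for 8.07% of all genes. Its counts fell by 0.19 on the log2 scale (SE 0.05, adjusted p = 0.0151, edgeR), a change of −12.1%.

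SMARCD3, a SMARCD family member known for its part in cardiac and skeletal muscle, had levels of 1.395, 1.5 and 2.36 in EGFP and of 1.20, 1.37 and 1.56 in SNF5. EGFP replicate 3 stood above the other samples. SNF5 was lower in each number, with a log2 fold change of −0.32 (SE 0.10, adjusted p = 0.0369, edgeR) or −20.0%. Without replicate 3 it was −0.18 (adjusted p = 0.0141, edgeR).

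The remaining members did not pass the threshold. SMARCD2 had levels of 2.29, 1.93 and 2.57 in EGFP and of 2.08, 1.54 and 2.13 in SNF5, with a log2 fold change of −0.24 (SE 0.09, adjusted p = 0.064). ARID1A had levels of 4.14, 3.89 and 5.39 in EGFP and of 3.998, 3.43 and 4.97 in SNF5, with a log2 fold change of −0.12 (SE 0.05, adjusted p = 0.0864). Both were lower within each replicate number, as were 5 of 10 members in all and 31.5% of all genes. SMARCD1 had a log2 fold change of −0.14 (SE 0.07, adjusted p = 0.172). Those of SMARCC2, ARID1B and SMARCE1 were −0.08 (SE 0.07), −0.07 (SE 0.05) and −0.03 (SE 0.06), with adjusted p-values of 0.378, 0.309 and 0.76.

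For SMARCA4 and SMARCD3 the difference between the means was smaller than the SD of the EGFP samples, and the calls rest on pairing by number. Without the block 0 members were called lower, and 0 without replicate 1 or without replicate 2, while without replicate 3 there were 8 lower and 1 higher, SMARCA2. Of all genes, 0.0465% were called lower without the block, 2.89% without replicate 1, 2.06% without replicate 2 and 31.1% without replicate 3, where 25.8% were higher. With TMM scaling SMARCD2 and ARID1A joined the called members (5 lower), where 19.2% of all genes were lower. In a fit of only the 6 samples compared SMARCC1 alone remained (adjusted p for SMARCA4 = 0.0679 and for SMARCD3 = 0.0676, edgeR), where 10.6% were lower.

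**Figure D3:**
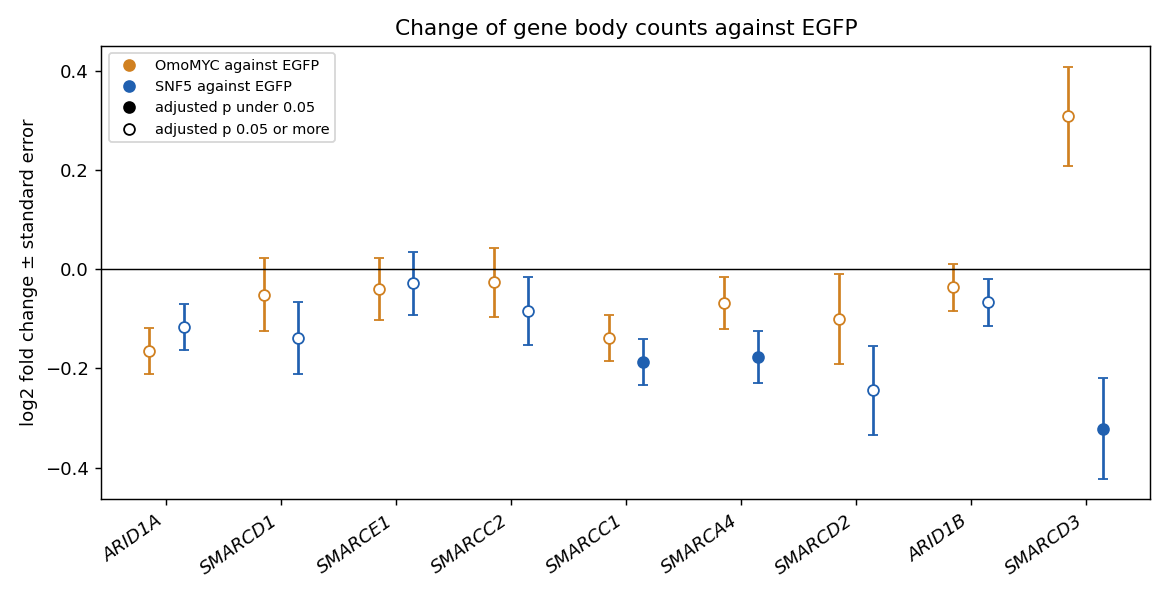
Log2 fold change of gene body counts against EGFP with its standard error, from the fit over all 9 samples, for the 9 members other than SMARCA2. Filled points have an adjusted p under 0.05: SMARCC1, SMARCA4 and SMARCD3 with SNF5. The 2 comparisons share the EGFP samples, and SMARCD3 has points on opposite sides of 0.

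SMARCA2 reads were too few for a firm comparison. Its gene body held 6, 15 and 71 reads in EGFP, 15, 16 and 69 in OmoMYC, and 20, 55 and 59 in SNF5. SNF5 counts were above EGFP in replicates 1 and 2 and below it in replicate 3, with scaled ratios of 2.86, 3.06 and 0.864. The log2 fold change was 0.80 (SE 0.43, adjusted p = 0.185, edgeR), and the ratio of the summed reads, scaled for depth, was 1.34 (exact 95% interval 1.02 to 1.76, counting error only). Without replicate 3 the log2 fold change was 1.55 (adjusted p = 0.0106, edgeR). In the promoter-proximal window SMARCA2 had 0, 0 and 0 reads in EGFP, 0, 1 and 0 in OmoMYC, and 2, 4 and 3 in SNF5. Per scaled read, the summed 9 reads with SNF5 were 2.75-fold a floor of 3 reads set for the EGFP group. No counting error was put on the 9 reads, so 2.75 is not a lower limit. SMARCA2 did not pass the filter of the promoter-proximal test. Its level in SNF5-expressing cells, 0.00632 ± 0.00312 (SD, n = 3), remained far below that of SMARCA4 there, 2.15 ± 0.47.

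OmoMYC was compared with the same EGFP samples. In gene bodies 0 of 10 members were called in either direction at an adjusted p under 0.05 by edgeR, where 4.1% of all genes were called higher and 4.42% lower. At an unadjusted p under 0.05 there were 3, namely ARID1A, SMARCC1 and SMARCD3. DESeq2 called SMARCD3 higher and ARID1A lower, where it called 7.16% of genes higher and 7.5% lower. Shares of all genes at an unadjusted p are not given, here or below, so counts at an unadjusted p cannot be read as many or few. The log2 fold change was below 0 for 8 of 10 members, with a median of −0.05 over members and 0.00 over all genes.

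ARID1A levels with OmoMYC were 3.81, 3.37 and 4.81, each below the EGFP sample of the same number, with a log2 fold change of −0.16 (SE 0.05, adjusted p = 0.0619, edgeR; DESeq2 adjusted p = 0.0496). SMARCC1 levels were 2.41, 2.20 and 2.34, all below the 3 EGFP samples, as for 5.46% of all genes, and its log2 fold change was −0.14 (SE 0.05, adjusted p = 0.0906, edgeR). SMARCD3 levels were 1.86, 2.20 and 2.34, above EGFP in replicates 1 and 2 and level with it in replicate 3. Its log2 fold change was 0.31 (SE 0.10, adjusted p = 0.0841, edgeR; DESeq2 adjusted p = 0.0377). Among the others, SMARCD2 had −0.10 (SE 0.09), SMARCA4 −0.07 (SE 0.05), SMARCD1 −0.05 (SE 0.07), SMARCE1 −0.04 (SE 0.06), ARID1B −0.04 (SE 0.05), SMARCC2 −0.03 (SE 0.07) and SMARCA2 0.27 (SE 0.44), with adjusted p-values from 0.43 to 0.837. Without replicate 3, 3 members were called lower (ARID1A, SMARCC1 and ARID1B) and SMARCD3 higher, with a log2 fold change of 0.47, where 24.4% of all genes were lower and 20.5% higher.

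SNF5 and OmoMYC were then compared directly. SMARCD3 was the only member called, lower with SNF5 than with OmoMYC, where 7.38% of all genes were called lower and 11.5% higher. The log2 fold change was −0.63 (SE 0.10, adjusted p = 0.00324, edgeR), a difference of −35.4%. All 3 SNF5 samples (1.20 to 1.56) lay below all 3 OmoMYC samples (1.86 to 2.34), as for 6.16% of all genes, and without the replicate block the adjusted p was 0.334. No other member had an adjusted p under 0.184. Without replicate 3, SMARCA4 (−0.15) and SMARCC2 (−0.14) were also called lower with SNF5, as were 19.8% of all genes.

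**Figure D4:**
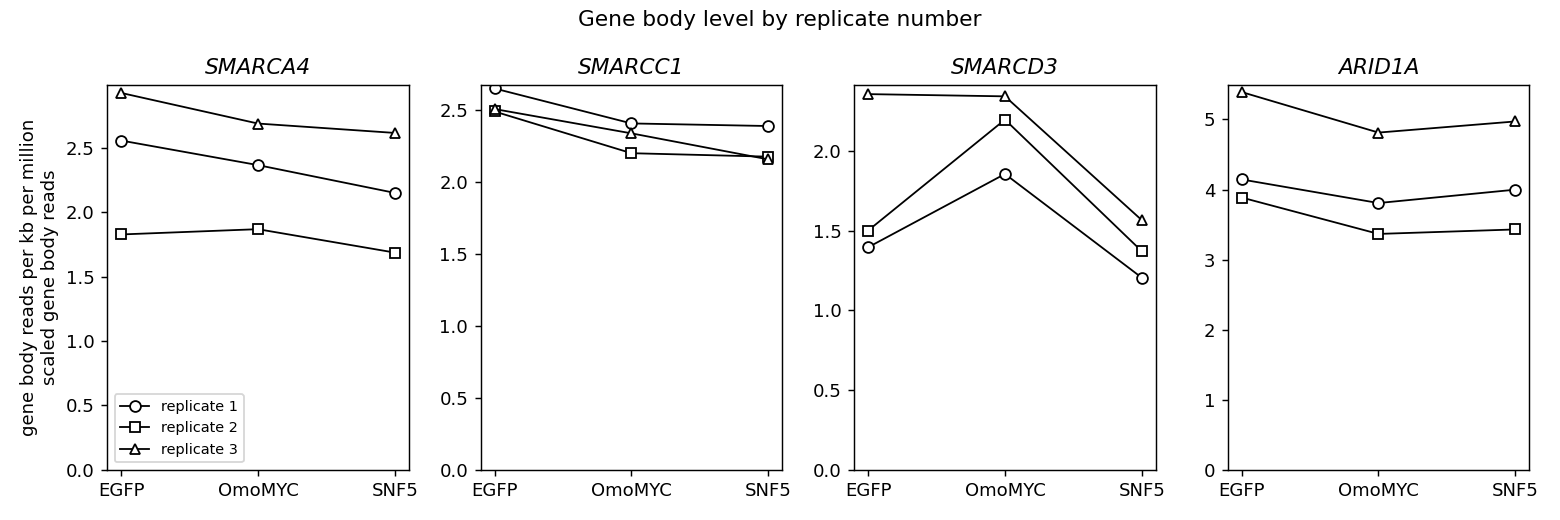
Gene body level (reads per kb and per 1000000 scaled gene body reads) of 4 members in each PRO-Seq sample, with lines joining samples of the same replicate number. All 4 are lower in SNF5 than in EGFP in each number. SMARCA4, SMARCC1 and SMARCD3 are also lower in SNF5 than in OmoMYC in each, and ARID1A is higher.

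Since paralogs can replace each other in the complex, the balance between them was tested as the log2 ratio of their levels, with 5 ratios in each of 2 comparisons and a two-sided exact permutation test that cannot go below 0.1 with 3 against 3 samples. None of the 10 tests could therefore reach 0.05, so they cannot decide whether the balance changed. The smallest p was 0.3 (adjusted 0.778), reached by SMARCC2 to SMARCC1 with both constructs and by SMARCD3 to SMARCD1 with OmoMYC. The SMARCC2 to SMARCC1 ratio was 0.23 ± 0.10 with SNF5 and 0.24 ± 0.10 with OmoMYC on the log2 scale, against 0.13 ± 0.07 in EGFP (SD, n = 3). The SMARCD3 to SMARCD1 ratio was −1.12 ± 0.13 with SNF5, −0.58 ± 0.16 with OmoMYC and −0.95 ± 0.42 in EGFP. The ratio of SMARCA2 to SMARCA4 was −8.55 ± 1.00 with SNF5 and −9.17 ± 0.80 with OmoMYC, within the unpaired spread of EGFP. Within replicate numbers, the OmoMYC ratio was above EGFP in each for SMARCA2 to SMARCA4, SMARCC2 to SMARCC1 and ARID1B to ARID1A. The other OmoMYC ratios and all SNF5 ratios differed in direction between numbers.

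Polymerase near the promoter was measured as reads in the 50 bp window with the most reads near the start, and the pausing index is the density there divided by that of the gene body. In EGFP replicates 1 to 3, the index of SMARCC1 was 12.4, 87.9 and 65.3, and that of ARID1A was 14.1, 56.6 and 25.8. SMARCC1 had the largest index of the members in replicates 2 and 3, and ARID1A in replicate 1. SMARCD3 had values of 12.8, 12.6 and 4.03, the lowest of the members with reads there in replicates 2 and 3 but not in replicate 1, and ARID1B had 5.98, 20.0 and 11.2. Replicate 1 was the lowest for SMARCC1, ARID1A and ARID1B but not for SMARCD3, and it also had 67.3 gene body reads per promoter-proximal read over all genes, against 10.3 and 18.5 in EGFP replicates 2 and 3. Comparisons of the index therefore used samples of the same number.

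With SNF5, 0 of the 9 members tested were called for promoter-proximal counts, where 2.64% of 11241 genes were higher and 1.63% lower, and 0 for the pausing index, where 2.02% of 11171 genes were higher and 1.64% lower. DESeq2 also called 0 and 0, where it called 1.7% of genes higher and 1.09% lower for counts. For the index it called 0.457% higher and 0.448% lower. At an unadjusted p under 0.05 in edgeR there were 0 and 1. That member was SMARCD2. Its promoter-proximal window held 6, 83 and 45 reads in EGFP and 16, 110 and 75 in SNF5, and its pausing index was 1.51, 28.97 and 7.57 in EGFP and 3.82, 40.0 and 15.8 in SNF5. The index was higher with SNF5 in every number, with a log2 fold change of 0.82 (SE 0.28, adjusted p = 0.0916, edgeR). Promoter-proximal counts alone had a log2 fold change of 0.53 (SE 0.26, adjusted p = 0.251). The other 8 members had changes of the index from −0.37 to 0.44 on the log2 scale, with SE from 0.21 to 0.31.

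With OmoMYC 0 of 9 members were called for promoter-proximal counts, where 1.63% of genes were higher and 0.169% lower, and 0 for the pausing index, where 2.18% were higher and 0.0806% lower. At an unadjusted p under 0.05 in edgeR there were 0 and 1. DESeq2 called 0 and 0, where it called 1.09% of genes higher and 0.0534% lower for counts. For the index it called 1.11% of 6190 genes higher and 0% lower. The log2 fold change of the index was above 0 for 9 of 9 members, with a median of 0.29, while the median over all genes was also above 0, at 0.14. For promoter-proximal counts 9 of 9 were above 0 with factors from gene bodies but 5 of 9 with factors from the promoter-proximal counts themselves, which moved the median of all genes from 0.13 to −0.03. SMARCA4 had the largest change of the index among the 9, 0.56 (SE 0.25, adjusted p = 0.256, edgeR). Its promoter-proximal window held 16, 115 and 73 reads in EGFP and 24, 154 and 107 in OmoMYC, higher in every number, and 15, 135 and 129 in SNF5.

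Between SNF5 and OmoMYC 0 of 9 members were called for promoter-proximal counts (0.48% of genes higher and 0.347% lower) or for the pausing index (0.125% higher and 1.1% lower). An unadjusted p under 0.05 was reached by 3 and 1. DESeq2 called 0 for counts (0.302% of genes higher and 0.24% lower) and 0 for the index (0.0358% higher and 0.322% lower). Without replicate 3, SMARCC2 (−1.09) and SMARCD3 (−0.97) were called lower with SNF5 for promoter-proximal counts on the log2 scale, and SMARCC2 for the index (−0.96), where 3.58% and 4.1% of all genes were lower.

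**Figure D5:**
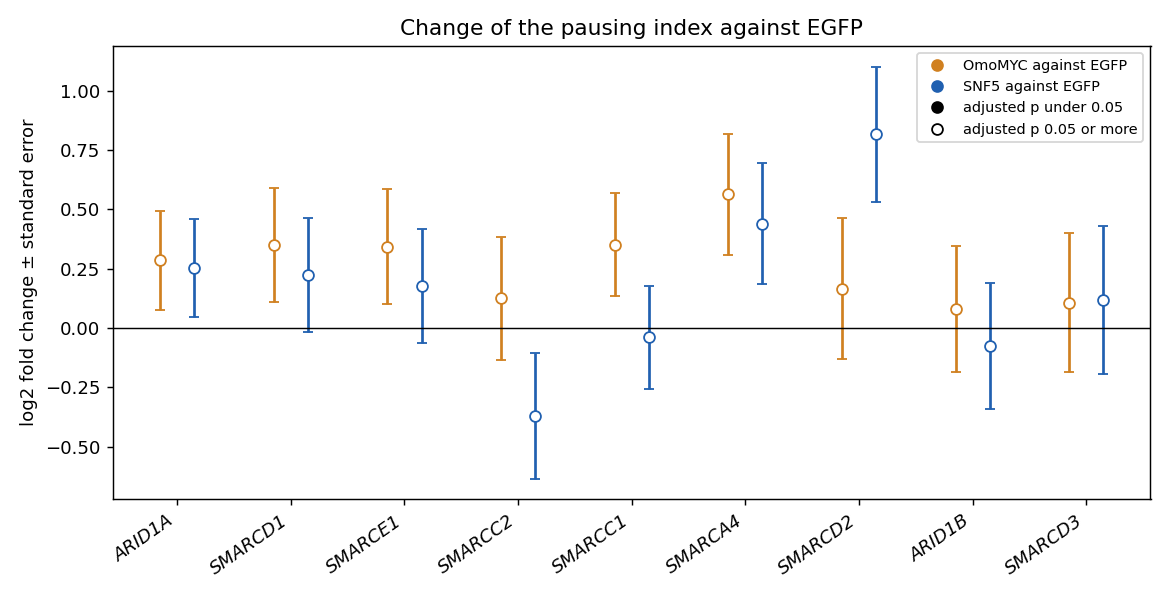
Log2 fold change of the pausing index against EGFP with its standard error for the 9 members tested. No point has an adjusted p under 0.05, and all OmoMYC points are above 0, as is the median of all genes (0.14). SMARCD2 with SNF5 is the highest, at 0.82.

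For comparison, 20 genes of other SWI/SNF subunits were in the table and 19 were tested in gene bodies. With SNF5, 3 were higher and 3 lower, where 17.6% of all genes were higher and 16.5% lower. Of the higher ones 1 was SMARCB1, the introduced gene. BCL7A, an accessory subunit, had a log2 fold change of −0.57 (SE 0.07, adjusted p = 0.000565, edgeR), and DPF3, a histone-reading subunit found in muscle and brain complexes, of 1.96 (SE 0.32, adjusted p = 0.00245). Among 15 tested genes of other remodelling families, 1 was higher and 3 were lower with SNF5, beside the same shares of all genes. The ISWI ATPase SMARCA1 had 0.27 (adjusted p = 0.0143, edgeR), the chromodomain helicase CHD5 −0.63 (adjusted p = 0.000147) and EP400, the ATPase of the TIP60 complex, −0.21 (adjusted p = 0.0193). With OmoMYC 0 were higher and 1 lower of the other SWI/SNF genes, where 4.1% of all genes were higher and 4.42% lower. None of the other remodellers was called with OmoMYC by edgeR, and 4 of them had an unadjusted p under 0.05.

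The genes whose gene body level most resembled the mean log2 level of the 10 members, centred within each replicate number over the 9 samples, were MYO1F (Pearson r = 0.98), C14orf176 (0.951) and C10orf107 (0.949) among 12153 genes. That mean is moved mainly by SMARCA2, whose counts are lowest. When SMARCA2 was left out, a choice made after seeing the data, r for MYO1F was 0.42 and the leading genes were PGRMC1 (0.997), SRPR (0.996) and LOC100131193 (0.992). The samples share their constructs and replicate numbers, and the correlations are descriptions.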

How the data were processed

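PRO-Seq, ATAC-Seq and MYC ChIP-Seq files deposited by the authors were used without realignment. For PRO-Seq, the authors trimmed reads with cutadapt, aligned them to hg19 with Bowtie2, removed reads with mapping quality under 10 and used NRSA to count the rest. The deposited values per RefSeq transcript are unscaled counts near the promoter and in the gene body, with a signal, the read density of the gene body, that gave its length. The methods place the promoter-proximal window on the coding strand, and whether gene body counting used strand is not given in the sources used here. The deposited MACS2 peak lists, called per sample at a q-value of 0.01 (MYC, hg19) or 0.001 (ATAC-Seq, hg38), give each peak a ratio (fold enrichment), a −log10 p and a −log10 q. The OmoMYC MYC lists each hold 1 placeholder line, which was left out. IgG samples were not used here.

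Counts were tested with edgeR 4.0.16 in R 4.3.3 (quasi-likelihood, RLE factors from gene body counts for both regions, mean of at least 10 counts, replicate number as a block), and with DESeq2 1.42.0 as an alternative. The pausing index was tested as the interaction of region and construct with a term per sample, samples being paired by number. The methods describe independent experiments, and deviations from construct means correlated at 0.822 to 0.922 between samples of the same number and at −0.718 to 0.169 between the others (gene bodies), so numbers were taken as pairs. In simulated data with genes changed 2-fold, the fit with the block recovered 87.4% of them in gene bodies (14965 genes, 8.42% of calls false) and the fit without it 26.6%, in the SNF5 comparison. For promoter-proximal counts the fit with the block recovered 66.8% (11168 genes) and for the pausing index 45.1% (11097 genes). The simulated data kept the differences between replicate numbers, so they cannot decide between the 2 fits. Recovery at changes as small as those of the called members (−11.5% to −20.0%) was not simulated.

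GENCODE release 44 gave starts in GRCh37 coordinates and, as listed there, in GRCh38. ATAC-Seq peaks that overlapped were merged into sites. The named genes are the 10 members, SMARCB1, up to 3 genes of each comparison list with the smallest adjusted p in the SNF5 gene body comparison, and the 3 genes most alike in level. The members and lists were chosen with earlier results of these data known. Alternatives varied the scaling, tool, filter, block, samples, peak thresholds and annotation. Python 3.11.15 (pandas 2.3.3, NumPy 2.4.6, SciPy 1.17.1) served for the rest. No protein sequences were used here.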

Additional observations from a re-analysis of the deposited data

Results flagged for a closer look

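The effects of SNF5 and OmoMYC on SMARCD3 gene body counts differed when tested directly, with a log2 fold change of −0.63 between the constructs (SE 0.10, adjusted p = 0.00324, edgeR's quasi-likelihood test with Benjamini-Hochberg adjustment). SNF5 was lower than OmoMYC in 3 of 3 replicate numbers, as for 5 of 10 members in all, and the share of all genes is not given. Over the leave-one-out fits the value stayed below 0, and without the replicate block it was −0.63 (adjusted p = 0.334). Groups of 3 samples were not examined for single outlying values.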

How the results depend on the processing

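The 3 members called lower with SNF5 in gene bodies became 5 with TMM scaling (19.2% of all genes lower). They became 0 without the replicate block (0.0465%) and 1 with only the 6 samples compared (10.6%). With a replicate omitted, 0 to 8 were lower (2.06% to 31.1% of all genes) and 0 to 1 higher (7.51% to 25.8%). With OmoMYC DESeq2 called 1 member higher and 1 lower in gene bodies (7.16% and 7.5% of genes). Leaving out replicates gave 0 to 1 higher (0.0132% to 20.5% of all genes) and 0 to 3 lower (0% to 24.4%). The 1 member called lower with SNF5 than with OmoMYC became 0 without the block (0.0398% of all genes). With a replicate left out, 1 to 3 were lower (0.803% to 19.8%). For promoter-proximal counts that comparison gave 0 to 2 lower with a replicate left out (0.0182% to 3.58% of all genes). For the pausing index it gave 0 to 1 lower (0.0548% to 4.1%). MYC bound 0 members with a reciprocal overlap of 50%, 0 at a q-value of 0.0001, and 1 to 4 with an EGFP sample left out. Member sites gained with SNF5 numbered 0 with the same number of top peaks (1.33% of all sites). They numbered 11 with at least 2 of 3 samples (22.3%), and 6 to 10 without a replicate (11.2% to 20.6%). Those gained with OmoMYC numbered 1 with at least 2 of 3 samples (1.5% of all sites) and 0 to 1 without a replicate (0.187% to 1.69%). The order of levels in EGFP kept 6 to 10 of 10 ranks without a replicate.

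Signs changed for values that had not passed a test. SMARCE1 in gene bodies lay between −0.0827 and 0.0182 (SNF5 against EGFP) and between −0.0176 and 0.0317 (SNF5 against OmoMYC, −0.0004 with TMM scaling), and with OmoMYC SMARCA2 ranged from −0.002 to 0.61 and SMARCC2 from −0.0459 to 0.0055, each with a replicate left out. In promoter-proximal counts the log2 ratio of SMARCC2 to SMARCC1 differed from EGFP by −0.19 with SNF5 and −0.0666 with OmoMYC, that of SMARCD2 to SMARCD1 by 0.59 with SNF5, and that of ARID1B to ARID1A by −0.24 with SNF5 and −0.0104 with OmoMYC. Without a replicate, SMARCD2 to SMARCD1 ranged from −0.21 to 0.0047 (SNF5) and from −0.12 to 0.0921 (OmoMYC), and SMARCD3 to SMARCD1 from −0.31 to 0.0666 (SNF5). The SMARCA2 ratio could not be computed from promoter-proximal counts, which were 0 in EGFP. With ratios paired by replicate number as a block, p cannot go below 0.25 (exact sign flips), which was reached with OmoMYC by SMARCA2 to SMARCA4 (0.53), SMARCC2 to SMARCC1 (0.11) and ARID1B to ARID1A (0.13), each higher than EGFP in 3 of 3 numbers, and by no ratio with SNF5. The causes of these differences were not tested. Promoter-proximal depth was lowest in replicate 1, and its part in the number of calls was not tested.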
